A study of Mus musculus with 6 samples.

Results

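The kidney amino acid and peptide transporters described here are 32 genes of the solute carrier (Slc) families. They were chosen by name from a list of known carriers, with earlier results of these data known. Shares of them set beside all genes are therefore descriptions only. The genes were looked up by symbol among the 56747 gene rows of the deposited table. Each symbol matched 1 row, and all 32 genes passed the filter on low counts, which kept 17557 genes for testing. The RNA came from whole kidneys of wild-type C57BL/6J males (a common inbred strain of mouse), taken 24 h after 30 min of ischemia of both kidneys. In the tacrolimus group, the mice had been given oral tacrolimus at 1 mg/kg/day for 1 day before the surgery. Tacrolimus is an immunosuppressant that inhibits the phosphatase calcineurin. In the saline group, the mice had been given oral saline on the same schedule, and the treatment label of these libraries reads none. The title of the series names another drug, zafirlukast, while the library labels and the design text name tacrolimus, and the libraries are called by those labels here. Each group has 3 libraries, where the design text speaks of 6 animals per group. That text calls the ischemia partial in the saline group and describes an occlusion of the renal arteries in the tacrolimus group, so the drug and any difference in the surgery cannot be told apart. No uninjured kidney was analysed, so every value compares injured kidneys with injured kidneys.

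Free amino acids and small peptides pass the glomerular filter and are taken back almost entirely by the proximal tubule. Carriers of the brush border bring them into the cell, mostly driven by sodium or protons or by exchange, and other carriers of the basolateral side release them to the blood. Several of the brush border carriers are known from inherited aminoacidurias such as cystinuria and Hartnup disorder. A further set of carriers serves the cell itself, by importing amino acids for growth, by accumulating taurine and betaine as osmolytes, or by moving amino acids into mitochondria.

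The libraries held 41011827 to 43568361 counts with tacrolimus and 38443534 to 44476844 with saline. Levels are given as CPM, counts scaled to the same library total with TMM factors, or as deposited FPKM, which also divide by gene length and so allow a comparison between genes. A kidney marker was high in each library. The thick ascending limb gene Umod stood at 4832 to 5765 CPM with tacrolimus and 2352 to 5984 CPM with saline. Of 13 markers of adrenal, liver, pancreas, heart, muscle and fat, 6 had 0 counts in all libraries (Cyp11b1, Cyp11b2, Nr5a1, Th, Ins1 and Ins2). The summed level of the 13 was 41.3 to 44.0 CPM with tacrolimus and 17.1 to 37.0 CPM with saline. The common leukocyte gene Ptprc was at 6.85 to 8.62 CPM with tacrolimus and 3.56 to 7.44 CPM with saline. Of 12 immune markers, the neutrophil markers Ly6g and Mpo had 0 counts in all 6 libraries. The neutrophil genes S100a8 and S100a9, in the same list, did have counts, and their levels are not reported here.

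Saline replicate 1 stood nearer to the tacrolimus libraries than to the other saline libraries. Over all tested genes, the root-mean-square log2 difference between it and each tacrolimus library was 0.592 to 0.612, while it was 0.867 for saline replicate 2 and 1.04 for saline replicate 3. Saline replicates 2 and 3 differed from each other by 0.817, and the tacrolimus libraries among themselves by 0.576 to 0.613. The saline libraries were thus all widely spread. The injury gene Havcr1, which encodes KIM-1, had 15, 57.7 and 118 CPM in tacrolimus replicates 1 to 3 and 268, 1598 and 1081 CPM in saline replicates 1 to 3. The files do not settle whether this library carries the wrong label or differs for another reason, so the differences between the groups rest on labels that could be wrong for it. Fold changes below use all 6 libraries, and the value without saline replicate 1 follows where it changes a call or moves the log2 fold change by over 1.5 times. No label ties a library to an animal of its own, and the p-values therefore cover only the spread among the 6 libraries, which may be technical.

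The comparison asks which transporter transcripts differ with tacrolimus in the reperfused kidney. With all 6 libraries, 0 of the 32 transporters passed edgeR's quasi-likelihood test at an adjusted p of 0.05 (adjusted p from 0.392 to 0.978), where 0.0114% of all genes tested were called. DESeq2 also called 0 of the 32, against 1.96% of all genes. At an unadjusted p under 0.05 in edgeR there were 4 transporters with higher and 2 with lower values under tacrolimus, 18.75% of the 32 against 12.7% of all genes. The 4 were Slc7a8, Slc16a10, Slc6a6 and Slc7a9, and the 2 were Slc7a5 and Slc25a22. In direction, 22 of the 32 had a higher fitted level with tacrolimus and 10 a lower one, with a median log2 fold change of 0.36 beside -0.01 over all genes tested.

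The groups did not overlap for 10 transporters that were higher in all 3 tacrolimus libraries, 31.25% of the 32 against a background of 10.7%. These were Slc3a1, Slc6a6, Slc6a12, Slc6a13, Slc6a19, Slc6a20b, Slc7a2, Slc7a8, Slc7a9 and Slc38a4. Only Slc7a5 was lower in all 3 tacrolimus libraries, 3.125% of the 32 against 11.0% of all genes. In 9 of these 11 genes saline replicate 1 was the saline library nearest to the tacrolimus values, and in all 32 it lay inside the range of the tacrolimus libraries for 16.

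When saline replicate 1 was left out, 10 transporters passed the edgeR test. The 8 called higher with tacrolimus were Slc3a1, Slc6a6, Slc6a13, Slc6a20b, Slc7a8, Slc7a12, Slc7a13 and Slc16a10, 25% of the 32 where 7.85% of all genes were called higher. The 2 called lower were Slc7a5 and Slc25a22, 6.25% where the background is 6.16%. Without that library the groups were apart for 18 transporters on the higher side, beside 26.5% of all genes, and for 5 on the lower side, beside 25.7%. Without it the remaining saline libraries are those farther from tacrolimus, and most differences are larger for that reason of construction.

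**Figure D1:**
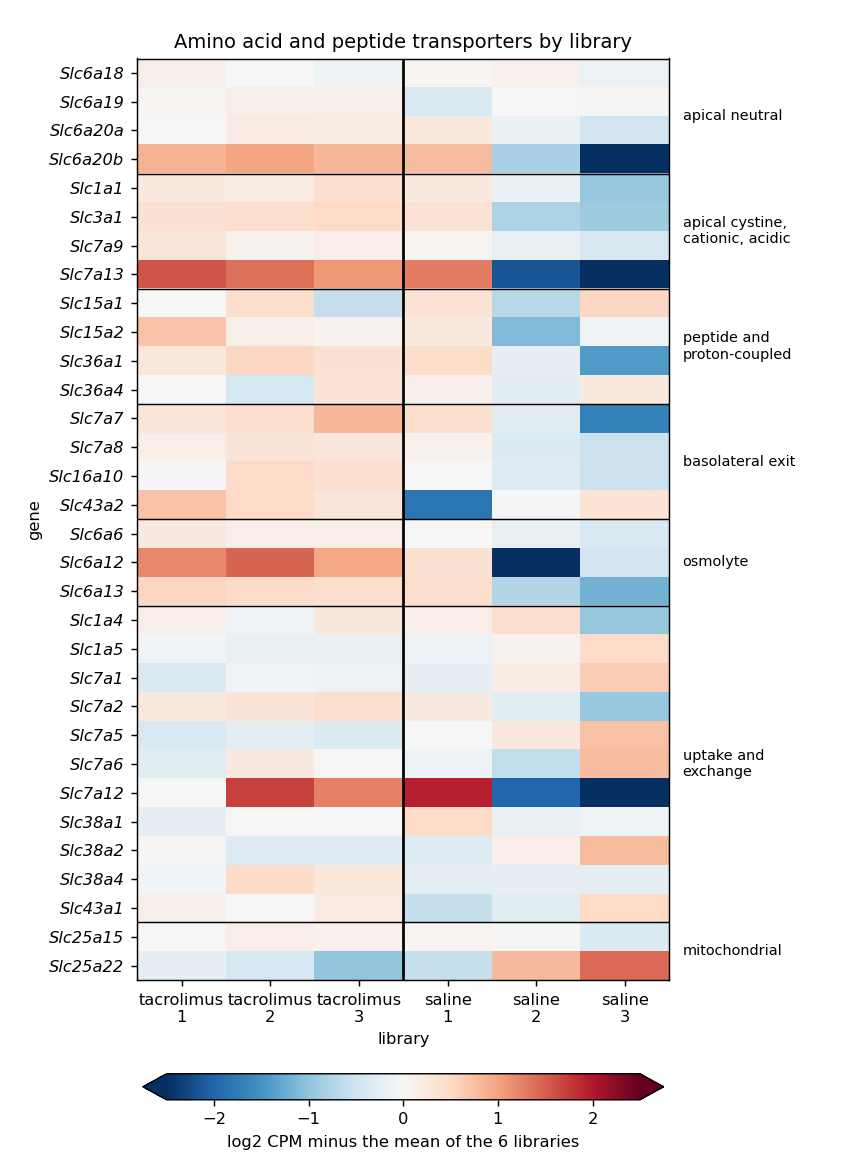
Each cell is the log2 CPM of a transporter (rows, grouped by role) in a library (columns), minus that gene's mean over the 6 libraries; red is above and blue below that mean, and values past 2.5 take the end colour. Saline replicate 1 lies within the range of the tacrolimus libraries for 16 of the 32 rows, and it is the lowest library for Slc43a2. Slc7a13, Slc7a12, Slc6a20b and Slc6a12 are dark blue in saline replicates 2 or 3, and Slc25a22 is red there.

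The apical cystine, cationic and acidic carriers were higher in 4 of 4 genes under tacrolimus (median log2 fold change 0.63, or 1.04 without saline replicate 1). Slc3a1 encodes the heavy chain rBAT, which carries its light chain partners to the brush border and is mutated in cystinuria. It was the transporter with the highest mean FPKM in either group, at 283, 294 and 306 FPKM in tacrolimus replicates 1 to 3 and 277, 126 and 115 FPKM in saline replicates 1 to 3. All 3 tacrolimus libraries lay above all 3 saline libraries, but saline replicate 1 lay only just below them. The edgeR log2 fold change was 0.76 ± 0.34 (± is the SE throughout; adjusted p = 0.401), and 1.28 ± 0.11 without saline replicate 1 (adjusted p = 0.00504). The gene (ENSMUSG00000024131) spans 85335804 to 85371664 on chromosome 17 of GRCm39 and overlaps Prepl on the other strand, whose counts over the 6 libraries came to 8.76% of those of Slc3a1.

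Slc7a9 encodes the light chain that pairs with rBAT to take up cystine and cationic amino acids. It had 72.7, 62.1 and 65.6 CPM with tacrolimus and 60.4, 51.4 and 44.3 CPM with saline. The groups did not overlap, and the difference was small (log2 fold change 0.36 ± 0.15, adjusted p = 0.393, edgeR). Slc7a13 encodes AGT1, a carrier of aspartate, glutamate and cystine that also pairs with rBAT, in the late proximal tubule. Its spread was far wider, with 367, 318 and 261 CPM with tacrolimus and 300, 28.0 and 13.5 CPM with saline. The counts behind the saline values were 12377, 1101 and 565. Saline replicate 1 lay within the range of the tacrolimus libraries, so the groups overlapped (edgeR log2 fold change 1.47 ± 1.06, adjusted p = 0.504). Without saline replicate 1 it was 3.93 ± 0.38 (adjusted p = 0.00604), a 15.2-fold difference and the largest among the 32. The gene lies at 19818725 to 19842218 on chromosome 4.

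Slc1a1 encodes the sodium-coupled carrier of glutamate and aspartate whose loss causes dicarboxylic aminoaciduria. It had 286, 275 and 322 CPM with tacrolimus and 287, 215 and 125 CPM with saline, so that the groups overlapped through saline replicate 1 (log2 fold change 0.50 ± 0.29, adjusted p = 0.437, edgeR, or 0.80 ± 0.24 with adjusted p = 0.0792 without saline replicate 1). Set against its cystinuria partner per length, Slc3a1 stood at 10.4, 12.7 and 12.4 times the FPKM of Slc7a9 with tacrolimus and at 12.3, 6.57 and 7.03 times with saline. Slc7a13 stood at 6.31, 6.41 and 4.96 times the FPKM of Slc7a9 with tacrolimus and at 6.20, 0.681 and 0.381 times with saline. The 3 transcripts of this transport system thus stood in like proportions in 4 libraries and not in saline replicates 2 and 3, where Slc7a13 was lowest relative to the others.

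**Figure D2:**
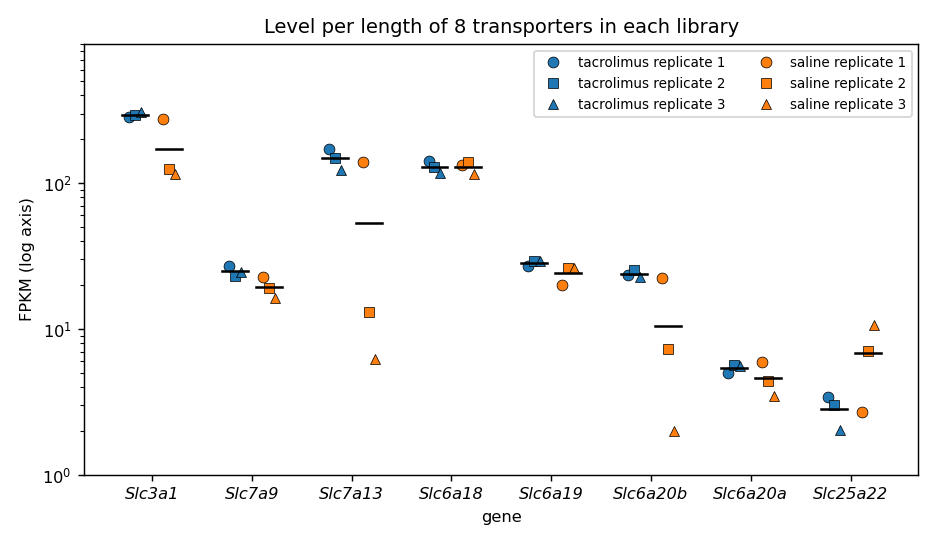
Deposited FPKM (log axis) of 8 transporters, picked after their values were seen, with a point per library, tacrolimus left of saline, and a bar at the mean of each group. Slc6a18 sits at 116 to 142 FPKM in every library, while Slc7a13 is at 13 and 6.24 FPKM in saline replicates 2 and 3 against 122 FPKM or more in the other 4, and Slc25a22 is highest in those same 2 libraries.

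The apical neutral carriers showed little difference in 3 of 4 genes. Slc6a19, the main sodium-coupled carrier of neutral amino acids and the gene of Hartnup disorder, had 136, 146 and 145 CPM with tacrolimus and 101, 131 and 133 CPM with saline. The groups did not overlap, but saline replicates 2 and 3 came within 5 CPM of the lowest tacrolimus library, and the lowest value was that of saline replicate 1 (log2 fold change 0.22 ± 0.14, adjusted p = 0.457, edgeR, or 0.11 ± 0.095 with adjusted p = 0.478 without saline replicate 1). Slc6a18, a related carrier of neutral amino acids in the brush border of mice, had 626, 566 and 519 CPM with tacrolimus and 589, 615 and 519 CPM with saline. Its log2 fold change was -0.01 ± 0.14 (adjusted p = 0.978, edgeR), the smallest of the 32, or 0.012 ± 0.14 without saline replicate 1, and its ranges in the groups nearly coincided. By share of the summed FPKM of the 32 transporters, Slc6a18 took 13.9, 12.7 and 11.9% with tacrolimus and 13.9, 23.7 and 22.8% with saline, and it ranked first among them in saline replicates 2 and 3.

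Mice have 2 neighbouring genes, Slc6a20a and Slc6a20b, in place of the single human SLC6A20, a carrier of proline and other imino acids. Slc6a20b had 200, 215 and 194 CPM with tacrolimus and 190, 61.9 and 17.1 CPM with saline, without overlap. Its log2 fold change was 1.18 ± 0.74 (adjusted p = 0.456, edgeR), and 2.36 ± 0.53 without saline replicate 1 (adjusted p = 0.0399). Slc6a20a had 20.4, 23.2 and 22.8 CPM with tacrolimus and 24.1, 18.1 and 14.4 CPM with saline, where the highest value was that of saline replicate 1 (log2 fold change 0.23 ± 0.20, adjusted p = 0.574, edgeR, or 0.45 ± 0.15 with adjusted p = 0.10 without saline replicate 1). Per length, Slc6a20b stood at 4.69, 4.44 and 4.07 times Slc6a20a with tacrolimus and at 3.76, 1.64 and 0.569 times with saline, so the order of the pair was turned round in saline replicate 3. The genes lie side by side on chromosome 9 (Slc6a20b at 123419865 to 123461630, Slc6a20a at 123463835 to 123507950). Reads of such near copies can be split between them by the counting. Slc6a20b also overlaps Sacm1l on the other strand, which had 72.1 to 126 CPM with tacrolimus and 72.4 to 85.3 CPM with saline, so Sacm1l was even in the saline libraries where Slc6a20b was not.

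The start regions of these pairs are shown because their transcripts differed in how far apart the libraries were. Each stretch is 120 bases long, 90 before and 30 after the RefSeq start, from GRCm38.p6 (a build other than that of the counts), 5′ to 3′ on the gene's strand. Capitals mark the letters of the motifs searched on both strands: GTTAAT, a half-site of the tubule factor HNF1; CAAAGTCCA, a site of the factor HNF4; AGGTCA, a half-site of nuclear receptors; and TGATGNAA, a motif of the stress factor ATF4.
Slc3a1 (chr17:85028257-85028376, plus strand): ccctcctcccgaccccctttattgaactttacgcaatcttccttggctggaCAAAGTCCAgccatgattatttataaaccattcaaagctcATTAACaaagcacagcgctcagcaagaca
Slc7a9 (chr7:35449002-35449121, plus strand): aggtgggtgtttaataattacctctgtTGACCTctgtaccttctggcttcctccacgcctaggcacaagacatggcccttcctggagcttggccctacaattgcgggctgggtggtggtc
Slc6a20b (chr9:123632509-123632628, minus strand): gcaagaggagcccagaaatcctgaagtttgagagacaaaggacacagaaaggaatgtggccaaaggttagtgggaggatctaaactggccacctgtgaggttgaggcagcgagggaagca
Slc6a20a (chr9:123678803-123678922, minus strand): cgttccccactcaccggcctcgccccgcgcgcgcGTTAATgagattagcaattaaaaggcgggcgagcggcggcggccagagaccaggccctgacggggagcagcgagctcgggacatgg

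RefSeq start windows of 300 bases were at hand for 24 of the 32 transporters, 43 windows in all. The HNF1 half-site occurred in 6 of the 43 windows (Slc3a1, Slc6a13, Slc6a20a, Slc7a7, Slc16a10 and Slc36a1), where 7.10% of all 32851 windows held it. The HNF4 site occurred in 1, that of Slc3a1, where 0.475% of all windows held it. The nuclear receptor half-site was in 6 windows of 5 genes (16.3% of all windows) and the ATF4 motif in 3 windows of 2 genes, Slc1a4 and Slc7a7 (3.97%). No motif overlapped another in the stretches printed. These matches are descriptions of letters and not of bound sites.

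The basolateral carriers, which let amino acids out towards the blood, were higher in 4 of 4 genes under tacrolimus (median log2 fold change 0.67). Slc7a8 encodes the exchanger LAT2 of neutral amino acids, and had 158, 178 and 172 CPM with tacrolimus and 152, 111 and 97.8 CPM with saline. The groups did not overlap, and the log2 fold change was 0.49 ± 0.18 (adjusted p = 0.392, edgeR), or 0.70 ± 0.11 without saline replicate 1 (adjusted p = 0.0182). Slc16a10 encodes TAT1, a carrier of aromatic amino acids, and had 51.1, 72.5 and 68.5 CPM with tacrolimus and 51.6, 41.4 and 35.8 CPM with saline. Here tacrolimus replicate 1 and saline replicate 1 were alike, and the log2 fold change was 0.58 ± 0.19 (adjusted p = 0.392), or 0.73 ± 0.18 without saline replicate 1 (adjusted p = 0.0498, edgeR).

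Slc7a7 encodes the light chain that releases cationic amino acids and is mutated in lysinuric protein intolerance. It had 79.8, 86.5 and 115 CPM with tacrolimus and 84.8, 53.7 and 19.9 CPM with saline, with overlap through saline replicate 1 (log2 fold change 0.83 ± 0.48, adjusted p = 0.435, edgeR). It did not pass without that library either (log2 fold change 1.35 ± 0.43, adjusted p = 0.0904, edgeR). Slc7a7 overlaps Oxa1l on the other strand, which was even across the libraries at 63.9 to 69.9 CPM with tacrolimus and 60.0 to 66.2 CPM with saline. Slc43a2, which encodes LAT4, a carrier of large neutral amino acids, did not follow the other carriers of this group. It had 181, 154 and 135 CPM with tacrolimus and 31.1, 108 and 140 CPM with saline. Its low library was saline replicate 1, which for 16 of the 32 transporters lay within the range of the tacrolimus libraries. The groups overlapped (log2 fold change 0.76 ± 0.49, adjusted p = 0.467, edgeR). Without saline replicate 1 the log2 fold change was 0.34 ± 0.18 (adjusted p = 0.233).

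Among the peptide and proton-coupled carriers, 2 of 4 genes were higher and 2 lower with tacrolimus, and the groups overlapped in each. Slc15a2 encodes PEPT2, the main peptide carrier of the kidney, and had 89.7, 60.7 and 58.2 CPM with tacrolimus and 65.0, 25.6 and 51.7 CPM with saline (log2 fold change 0.55 ± 0.35, adjusted p = 0.459, edgeR, or 0.85 ± 0.35 with adjusted p = 0.154 without saline replicate 1). Its lowest library was saline replicate 2, with saline replicate 3 close to the tacrolimus values. Slc15a1, which encodes the intestinal type PEPT1, was near the limit of detection, with 22, 30 and 14 counts with tacrolimus and 28, 12 and 32 counts with saline. Slc36a1, a proton-coupled carrier of small amino acids found on lysosomes, had 62.6, 75.3 and 68.3 CPM with tacrolimus and 71.9, 45.5 and 19.5 CPM with saline (log2 fold change 0.59 ± 0.42, adjusted p = 0.500, edgeR, or 1.08 ± 0.35 with adjusted p = 0.0937 without saline replicate 1). Its relative Slc36a4 was even, at 11.6 to 20 CPM with tacrolimus and 13.2 to 18.6 CPM with saline.

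The osmolyte carriers of the Slc6 family were higher in 3 of 3 genes with tacrolimus. None of the 3 overlapped between groups (100%, against 10.7% of all genes on the higher side). Slc6a6, the taurine transporter, had 610, 587 and 587 CPM with tacrolimus and 530, 460 and 402 CPM with saline. The tacrolimus libraries were close together, and the log2 fold change was 0.36 ± 0.14 (adjusted p = 0.393), or 0.47 ± 0.11 without saline replicate 1 (adjusted p = 0.0466, edgeR). Slc6a13, which carries GABA, taurine and betaine, had 128, 122 and 119 CPM with tacrolimus and 119, 52.8 and 38.4 CPM with saline. Saline replicate 1 again came next to the tacrolimus values, and the log2 fold change was 0.81 ± 0.40 (adjusted p = 0.410), or 1.44 ± 0.16 without it (adjusted p = 0.00754, edgeR). Its neighbour Slc6a12, the betaine transporter BGT1 that hypertonicity induces in the medulla, was scarce. It had 171, 202 and 143 counts with tacrolimus and 93, 4 and 51 counts with saline, all saline libraries being lower (log2 fold change 1.77 ± 0.83, adjusted p = 0.405, edgeR).

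The carriers that serve uptake and exchange in many cell types were mixed, with 5 of 11 genes higher and 6 lower under tacrolimus (median log2 fold change -0.13, or -0.06 without saline replicate 1). Those with lower values include the importers of growing cells. Slc7a5, which encodes LAT1 for large neutral amino acids, had 5.76, 6.36 and 5.97 CPM with tacrolimus and 7.58, 8.94 and 12.6 CPM with saline, the only transporter lower in all tacrolimus libraries. Its log2 fold change was -0.69 ± 0.22 (adjusted p = 0.392), and -0.83 ± 0.20 without saline replicate 1 (adjusted p = 0.0456, edgeR). The glutamine carrier Slc38a2, known to be induced by amino acid shortage and hypertonicity, had 159, 123 and 123 CPM with tacrolimus and 123, 173 and 269 CPM with saline (log2 fold change -0.48 ± 0.29, adjusted p = 0.441). The groups overlapped there, since saline replicate 1 was as low as tacrolimus replicates 2 and 3.

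Slc7a1, the cationic carrier CAT1, had 20.6 to 25 CPM with tacrolimus and 23.1, 30.1 and 41.0 CPM with saline (log2 fold change -0.44 ± 0.22, adjusted p = 0.411, edgeR). Slc1a5, the glutamine exchanger ASCT2, had 28.1 to 30.3 CPM with tacrolimus and 28.9, 33.8 and 43.9 CPM with saline (log2 fold change -0.30 ± 0.17, adjusted p = 0.434). In both genes the highest library was saline replicate 3. By contrast Slc7a2, the cationic carrier CAT2, had 6.00 to 6.58 CPM with tacrolimus and 5.81, 4.14 and 2.56 CPM with saline, without overlap (log2 fold change 0.59 ± 0.31, adjusted p = 0.421, edgeR, or 0.91 ± 0.26 with adjusted p = 0.0702 without saline replicate 1). The system A carrier Slc38a4 had 2.30 to 3.34 CPM with tacrolimus and 2.03 to 2.08 CPM with saline, also without overlap.

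Slc7a12 encodes a mouse light chain carrier (Asc-2) of small neutral amino acids, and varied the most, on the log scale, among libraries of 1 group. It had 16.2, 53.0 and 38.8 CPM with tacrolimus and 62.4, 4.04 and 2.08 CPM with saline. Its highest library was saline replicate 1 and its lowest were the other saline libraries, so its log2 fold change was 0.66 ± 1.19 (adjusted p = 0.790), and 3.56 ± 0.61 without saline replicate 1 (adjusted p = 0.0196, edgeR). Slc1a4, the exchanger ASCT1, had 27.0 to 34.8 CPM with tacrolimus and 32.2, 37.6 and 14.8 CPM with saline. Slc7a6 had 6.09 to 8.52 CPM with tacrolimus and 6.71, 4.78 and 12.6 CPM with saline, and Slc38a1 had 7.92 to 9.30 CPM with tacrolimus and 13, 8.18 and 8.77 CPM with saline. These 3 overlapped between groups. A single saline library lay away from the rest for Slc1a4 and Slc38a1. For Slc7a6, saline replicate 2 was the lowest library and saline replicate 3 the highest. Slc43a1 was scarce, with 36 to 42 counts with tacrolimus and 23 to 52 counts with saline.

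The mitochondrial carriers parted. Slc25a22 encodes a carrier of glutamate into mitochondria, and had 20.6, 17.9 and 12.1 CPM with tacrolimus and 16.1, 42.3 and 64.7 CPM with saline. Saline replicate 1 lay among the tacrolimus libraries, and the other saline libraries were above all of them. The log2 fold change was -1.28 ± 0.48 (adjusted p = 0.393), and -1.66 ± 0.28 without saline replicate 1, where tacrolimus was 3.16-fold lower (adjusted p = 0.0182, edgeR). The gene lies at 141009657 to 141017805 on chromosome 7. Slc25a15, which exchanges ornithine and citrulline for the urea cycle, was even at 167 to 190 CPM with tacrolimus and 133 to 176 CPM with saline (log2 fold change 0.16 ± 0.15, adjusted p = 0.590, edgeR).

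**Figure D3:**
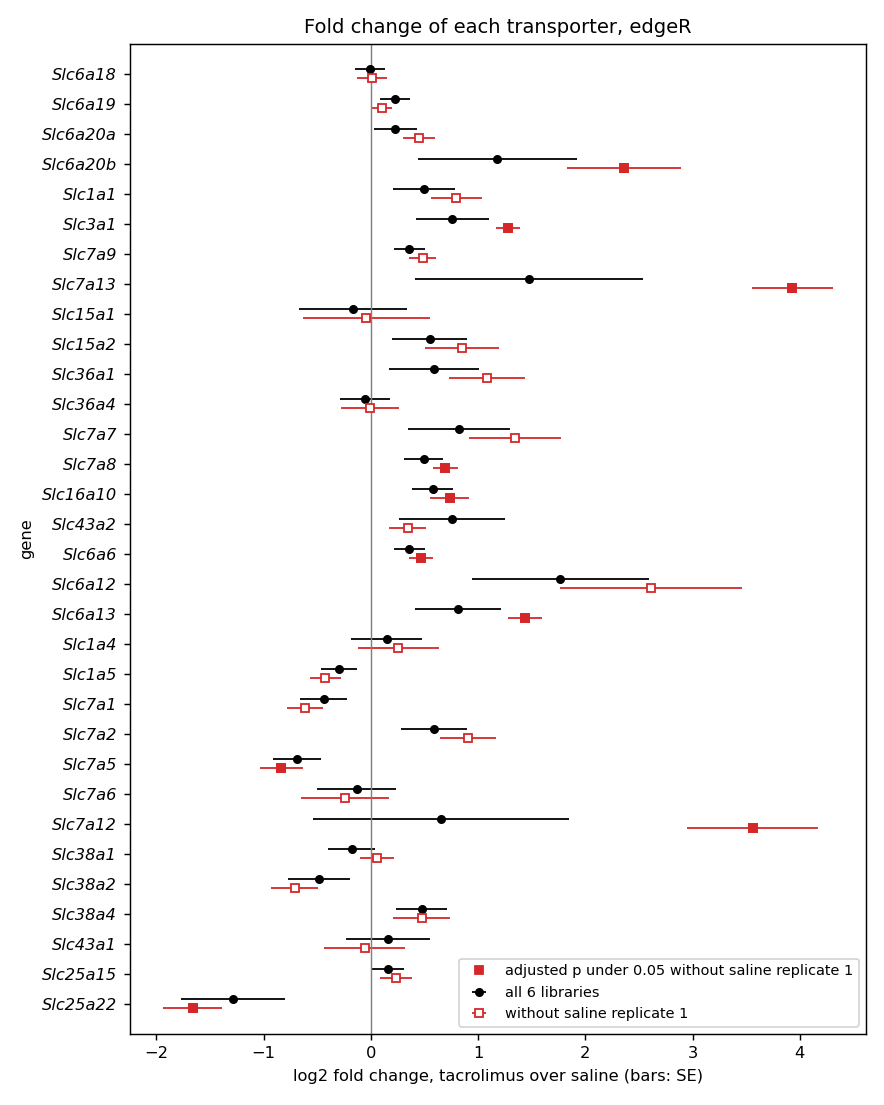
Log2 fold change, tacrolimus over saline, of each transporter with its SE (edgeR), for all 6 libraries (black circles) and without saline replicate 1 (red squares, filled where the adjusted p is under 0.05). Leaving the library out moves Slc7a13 to 3.93, Slc7a12 to 3.56 and Slc6a20b to 2.36, while Slc6a18 and Slc36a4 stay near 0.

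By family, the Slc6 carriers had higher fitted levels with tacrolimus in 6 of 7 genes (median log2 fold change 0.36) and the Slc7 carriers in 6 of 9 (median 0.49). The Slc38 carriers were higher in 1 of 3 (median -0.18, or 0.059 without saline replicate 1). Slc1, Slc15, Slc36, Slc43 and Slc25 have 3 or fewer genes here, of which 2 of 3, 1 of 2, 1 of 2, 2 of 2 and 1 of 2 were higher. Taken as a sum of FPKM, the 32 transporters came to 1020, 1015 and 989 FPKM with tacrolimus and 958, 586 and 510 FPKM with saline. Slc3a1 alone made up 27.7 to 30.9% of the sum with tacrolimus and 28.9, 21.5 and 22.6% with saline, and Slc7a13 made up 12.4 to 16.8% with tacrolimus and 14.6, 2.22 and 1.22% with saline.

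Other markers of the tubule moved with the same libraries. Over 33 proximal tubule markers outside the transporter list, 30 were higher under tacrolimus (median log2 fold change 0.63). In edgeR with 6 libraries 0 were called, and 7 had an unadjusted p under 0.05 (21.2%, against 12.7% of all genes). DESeq2 called 3, where it called 1.96% of all genes. Without saline replicate 1 the median log2 fold change was 1.15. There 16 of the 33 were called higher (48.5%, against 7.85% of all genes) and 1 lower (3.03%, against 6.16%). The median level of the 33 markers lay above the 6-library mean by 0.45, 0.44 and 0.45 (log2) with tacrolimus, and at 0.20, -0.48 and -0.68 with saline. Lrp2, which encodes the endocytic receptor megalin, had 1945, 2088 and 1920 CPM with tacrolimus and 1849, 855 and 318 CPM with saline. Of 20 tubular injury markers 19 were lower with tacrolimus (median log2 fold change -1.66). With all 6 libraries edgeR called 0 of them, and 16 had an unadjusted p under 0.05 (80%, against 12.7% of all genes). DESeq2 called 13 lower, where it called 1.96% of all genes. For 14 the groups did not overlap, with tacrolimus lower (70%, against 11.0% of all genes). Without saline replicate 1, 16 of the 20 were called lower (80%, against 6.16% of all genes). The summed level of the 20 was 3030, 3955 and 8450 CPM with tacrolimus and 8607, 33326 and 33680 CPM with saline. Among markers of other kidney cells, 11 of 14 distal nephron, 7 of 8 endothelial and 5 of 8 tested immune markers were higher with tacrolimus (49.3% of all genes). The other 3 immune markers were lower without overlap, 37.5% of the 8 against 11.0% of all genes, and DESeq2 called 2 of the immune markers lower. No immune marker that was higher was free of overlap. Without saline replicate 1, 3 of the 8 immune markers were called higher and 3 lower in edgeR. That is 37.5% each, against 7.85% and 6.16% of all genes, and the median log2 fold change was then 0.70. With all 6 libraries edgeR and DESeq2 called 0 endothelial and 0 distal nephron markers. Of the endothelial markers 4 were higher without overlap (50%, against 10.7% of all genes) and 1 lower (12.5%, against 11.0%). Without saline replicate 1, 5 of 8 endothelial (62.5%) and 4 of 14 distal nephron markers (28.6%) were called higher, against 7.85% of all genes. The summed endothelial level was 453 to 504 CPM with tacrolimus and 265 to 435 CPM with saline, and the summed immune level 99.8 to 108 and 83.6 to 118 CPM. The part of these shifts in the transporter values was not tested. In whole-kidney RNA, fewer proximal tubule cells and less of a transcript per cell cannot be told apart.

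**Figure D4:**
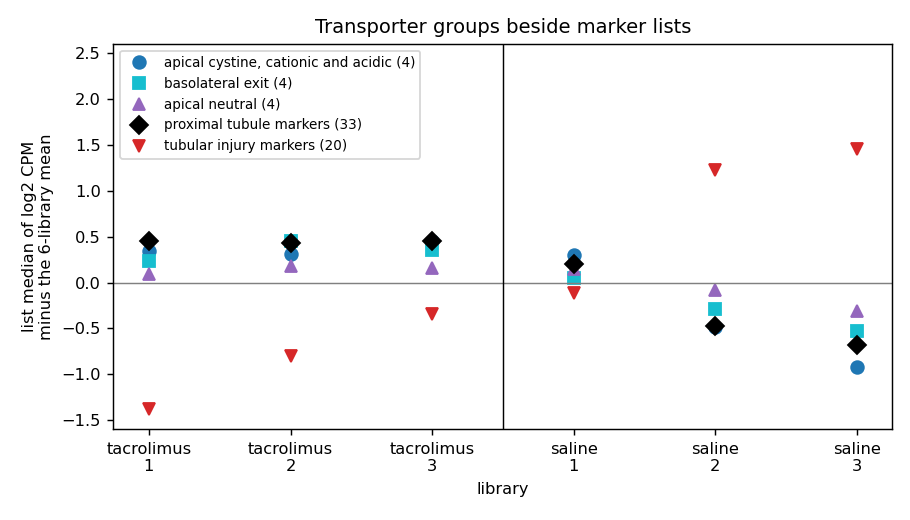
Median log2 CPM, minus the mean of the 6 libraries, over 3 transporter groups and 2 marker lists (number of genes in brackets) in each library, tacrolimus left of saline. The apical cystine group lies near the proximal tubule markers, at 0.30 or more in 4 libraries and at -0.48 and -0.92 in saline replicates 2 and 3, while the injury markers stand at 1.22 and 1.45 there.

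Set against the median of those proximal tubule markers in the same library, the transporters differed among themselves. Slc3a1 stayed within 0.30 of the marker median in every library (-0.07, 0.00 and 0.04 with tacrolimus and 0.15, -0.30 and -0.21 with saline, log2 after centring). Slc7a8 kept within 0.29 of it (-0.29, -0.11 and -0.16 with tacrolimus and -0.10, 0.13 and 0.15 with saline). On this scale Slc7a8 was lower with tacrolimus, just without overlap, the reverse of its own direction. Slc7a13 was at 1.13, 0.94 and 0.63 with tacrolimus and at 1.08, -1.66 and -2.5 with saline. In saline replicates 2 and 3 it was thus lower by more than the marker median was. Single markers spread widely about that median, with log2 fold changes from -0.59 to 1.84 over the 6 libraries, against 1.47 for Slc7a13. Slc6a20b was at 0.42, 0.55 and 0.38 with tacrolimus and at 0.60, -0.34 and -1.99 with saline. Slc6a18 went the opposite way, at -0.32, -0.45 and -0.59 with tacrolimus and -0.16, 0.58 and 0.54 with saline, since its own level was even while the marker median was not. Slc25a22 was at -0.68, -0.86 and -1.44 with tacrolimus and -0.79, 1.29 and 2.10 with saline.

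Of the 44 other amino acid transporter genes of mouse examined, 28 were tested, 7 had 0 counts in all libraries, and 0 passed with all 6 libraries in edgeR. At an unadjusted p under 0.05 in edgeR there were 4 (14.3%, against 12.7% of all genes). DESeq2 called 2, where it called 1.96% of all genes. By fitted level 19 of the 28 were higher and 9 lower under tacrolimus (median log2 fold change 0.13). The smallest p belonged to Slc7a11, the cystine-glutamate exchanger, which had 0.447, 0.403 and 0.545 CPM with tacrolimus and 0.969, 4.45 and 6.31 CPM with saline (log2 fold change -3.06 ± 0.68, adjusted p = 0.392, edgeR, or -3.52 ± 0.29 with adjusted p = 0.00504 without saline replicate 1). Slc6a17, a carrier of neutral amino acids known from synaptic vesicles, had 32.1, 29.4 and 30.9 CPM with tacrolimus and 14.7, 17.9 and 22.8 CPM with saline, without overlap and with its lowest value in saline replicate 1 (log2 fold change 0.74 ± 0.18, adjusted p = 0.392, edgeR, or 0.60 ± 0.14 with adjusted p = 0.0442 without saline replicate 1). These are the genes that DESeq2 called. The aspartate-glutamate carriers of mitochondria did not overlap either. Slc25a13 had 140 to 150 CPM with tacrolimus and 138, 95 and 79.5 CPM with saline (log2 fold change 0.50 ± 0.21, adjusted p = 0.396, edgeR, or 0.75 ± 0.12 with adjusted p = 0.0164 without saline replicate 1). Slc25a12 had 76.5 to 82.0 CPM with tacrolimus and 56.4 to 69.8 CPM with saline. Slc38a11 was under 1 CPM in all libraries. Without saline replicate 1, 6 of 29 were called higher (20.7%, against 7.85% of all genes) and 2 lower (6.90%, against 6.16%). The 2 were Slc7a11 and the glycine transporter Slc6a9.

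Genes of partner proteins of these carriers were also measured. Cltrn encodes collectrin, which the Slc6a19 and Slc6a18 proteins need to reach the brush border of the kidney. It had 775, 834 and 840 CPM with tacrolimus and 676, 490 and 490 CPM with saline, without overlap (log2 fold change 0.57 ± 0.17, adjusted p = 0.392, edgeR). Without saline replicate 1 its log2 fold change was 0.74 ± 0.11 and it was called higher (adjusted p = 0.0127). Slc3a2, the heavy chain shared by Slc7a5, Slc7a7 and Slc7a8, had 168 to 192 CPM with tacrolimus and 160, 188 and 294 CPM with saline. Its groups overlapped, with the highest value in saline replicate 3.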

How the data were processed

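Whole-kidney RNA-seq libraries were grouped by sample title. For each gene and library the deposited table holds a read count, whole and not normalized, and the authors' FPKM value (by its definition, per gene length and library total), per the file headers; how the FPKM were computed is not stated. Coordinates are on GRCm39, a build named in the submitters' processing notes. The aligner, the counter and its use of strand were not given in the sources used here, so a gene and its antisense partner cannot be told apart. Per the labels' protocols RNA was taken with TRIzol or, alternatively, on columns, and the design text speaks of a supernatant after homogenizing in buffer; which library had which is not stated. No column of a sample outside the series was present (0 columns).

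The whole table was fitted with edgeR 4.0.16 in R 4.3.3 (filterByExpr with a minimum count of 10 and a minimum total of 15, TMM, glmQLFit with robust moderation, glmQLFTest, two-sided, Benjamini-Hochberg over all genes tested, threshold 0.05). Each SE is the size of the log2 fold change over the square root of F. Centred values use log2 CPM with a prior count of 2. Counting error weighs most on the genes under 1 CPM. No pair of libraries agreed within sampling noise. Alternatives were DESeq2 1.42.0, its size factors in edgeR, no filter, a replicate block, limma 3.58.1 on log2(FPKM + 1) or log2(FPKM + 0.1), and leaving out each library. The edgeR and DESeq2 fits were tested on simulated data. With 3 libraries per group an exact permutation test of a single gene cannot go below p = 0.1. The members and lists were chosen with earlier results of these data known. Named genes are all 32 members, the 6 of the other carriers and partners with the smallest p, and 8 markers, and some genes are not reported here; other carriers and partners in the text were chosen after their values were seen. Promoter letters come from RefSeq windows of GRCm38.p6, matched by symbol.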

Additional observations from a re-analysis of the deposited data

How the results depend on the processing

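The count of genes called over the whole table was 2 in edgeR. It was 344 with DESeq2, 1 with the replicate block, 1 with limma at either FPKM pseudocount, and between 0 and 2534 when 1 library was left out, the highest without saline replicate 1 and the lowest without tacrolimus replicate 2. The transporters called stayed at 0 in every alternative with all 6 libraries, the replicate block included, and ranged from 0 to 10 with a library left out, where the 10 came without saline replicate 1. The other amino acid transporters had 2 calls with DESeq2 and 0 to 8 with a library left out, the 8 without saline replicate 1. The transporters without overlap numbered 11 with CPM and with FPKM, and 11 to 23 with a library left out. The same-numbered libraries showed no shared deviation (correlations of -0.02, -0.01 and -0.05 over genes). No pairing by number was seen, but deviations from means of 3 libraries cannot show that there was none.

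Leave-one-out changed the sign of the log2 fold change in 7 transporters: Slc1a4 (-0.16 to 0.41), Slc6a18 (-0.079 to 0.046), Slc7a6 (-0.40 to 0.35), Slc15a1 (-0.47 to 0.079), Slc36a4 (-0.27 to 0.13), Slc38a1 (-0.30 to 0.059) and Slc43a1 (-0.058 to 0.56). Of the markers, Umod did so too (-0.068 to 0.52). No alternative with all 6 libraries turned a transporter's sign. The log2 fold change of Slc7a13 was 2.80 with the replicate block and 2.69 on log2(FPKM + 0.1), against 1.47 in edgeR, and that of Slc7a12 was 2.43 and 1.95, against 0.66; the cause was not tested. Without saline replicate 3, Slc36a1 and Slc1a1 came to 0.23 each, against 0.59 and 0.50. With 3 libraries a group, and saline replicate 1 nearer to tacrolimus than to the other saline libraries, the spread within the saline group limits each call.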
